A study of Rattus norvegicus with 150 samples.

Results

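The macrophage and foreign body cell genes described here are 10 of the 32545 genes in a count table of rat calf muscle that held metal pellets. They were taken by identifier, as a list drawn up with earlier results of these data known. In the order of their roles they are Ptprc (ENSRNOG00000000655), Itgam (ENSRNOG00000019728), Tyrobp (ENSRNOG00000020845), Aif1 (ENSRNOG00000000853), Cd68 (ENSRNOG00000037563), Lyz2 (ENSRNOG00000005825), Cd163 (ENSRNOG00000010253), Gpnmb (ENSRNOG00000008816), Ctsk (ENSRNOG00000021155) and Spp1 (ENSRNOG00000043451). The names came with the choice of identifiers, since the table itself gives none. The libraries were made from gastrocnemius muscle of male Sprague-Dawley rats, bought at about 30 days of age and given at least 2 weeks to settle. Every rat in the study, controls included, had surgery and carried 4 pellets, 2 in each limb, each a cylinder 1 mm across and 2 mm long. The pellets were of nickel (Ni, sampled at 1, 3 and 6 months), cobalt (Co), a metal labelled P, depleted uranium (DU) or tantalum (Ta), with Co, P, DU and Ta sampled at 1, 3, 6 and 12 months. Tantalum is the sham metal, so each comparison below sets 1 metal beside another embedded metal and not beside muscle without a pellet. P is taken to be lead, which the design text lists, but no library label spells this out. There were 150 libraries in 19 groups, 17 groups of 8 and 2 groups of 7 (Co at 6 months and Ta at 1 month). Since no label says which rat gave which library, the tests here speak only of how libraries varied, which may in part be technical.

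A solid object left in tissue is met first by monocytes from the blood, which become macrophages, and macrophages that cannot engulf it may fuse into foreign body giant cells on its surface. Ptprc encodes CD45, a phosphatase on the surface of nearly all white blood cells. Itgam encodes CD11b, an adhesion receptor chain of macrophages, monocytes and neutrophils. Tyrobp encodes DAP12, an adaptor that passes on signals of activating receptors and is needed when osteoclasts form by fusion. Aif1 encodes IBA1, an actin-binding protein of macrophages and microglia. Cd68 encodes a lysosomal membrane glycoprotein of phagocytes, and Lyz2 encodes lysozyme, an enzyme that digests bacterial cell walls. Cd163 encodes a scavenger receptor for haemoglobin bound to haptoglobin and marks resident tissue macrophages. Gpnmb encodes a transmembrane glycoprotein of macrophages that digest much debris, Ctsk encodes cathepsin K, the collagen-cutting protease of osteoclasts, and Spp1 encodes osteopontin, a secreted adhesion protein of macrophages, bone cells and injured muscle.

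The libraries held 12674115 to 21921859 counts each (median 15778710). Counts of the 10 genes summed over all libraries ran from 8943 for Cd68 to 286248 for Lyz2, and Spp1 had no count in 2 libraries. Lyz2 has a near-identical neighbouring copy in the rat annotation, so its reads may be split between copies. Levels below are CPM, a library's counts of a gene as a share of its total, scaled by library with the TMM method of edgeR. Genes differ in length, which CPM does not correct, so levels are compared between libraries and not between genes. In bulk muscle, fewer cells of a type and less RNA per cell cannot be told apart. Some libraries stood apart from their group by the correlation of log2 CPM over all genes, with a median r of 0.415 for DU replicate 2 at 3 months, 0.790 for DU replicate 6 at 12 months and 0.842 for Co replicate 1 at 6 months. Co libraries at earlier times were also low, with 0.799 and 0.834 for replicates 2 and 8 at 3 months and 0.821 for replicate 3 at 1 month. The cause was not tested. The comparisons of DU at 3 and 12 months, and of Co with Ta at 6 months, are given with and without these libraries. The interaction of Co at 3 against 6 months was not fitted without Co replicate 1 of 6 months. Without Co replicate 2 or 8 at 3 months, 4 of the 10 genes passed against Ta (2.92% of all genes each). Without Co replicate 3 at 1 month 0 passed (0%). Markers of muscle and of other cell types could not be looked up, because identifiers could not be paired with names.

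The stretches just before the start sites of 4 genes are shown because these genes did not all share the group with the highest median. Ptprc and Cd68 had their highest group median in Co at 3 months. That of Spp1 was in Ta at 3 months, and that of Gpnmb was in DU at 12 months. Spp1 was also high in single libraries of each other metal. It had 82.9 CPM in DU replicate 6 at 12 months and 58.0 CPM in Co replicate 1 at 1 month. It had 47.5 CPM in Ni replicate 6 at 3 months and 33.3 CPM in P replicate 5 at 1 month. Each stretch is the 250 bases before the start site in RefSeq (assembly GRCr8), printed on the gene's own strand. They lie at chr13:52259747-52259996 on the minus strand for Ptprc, chr10:54882442-54882691 on the minus strand for Cd68, chr4:79340878-79341127 on the plus strand for Gpnmb and chr14:5619805-5620054 on the minus strand for Spp1. Capitals mark matches to 3 motifs: GAGGAA, a core bound by the macrophage factor PU.1 (TTCCTC where the match is on the other strand), TGAGTCA, the AP-1 site, and TCACATGA, the M-box bound by MITF and TFE factors.
Ptprc: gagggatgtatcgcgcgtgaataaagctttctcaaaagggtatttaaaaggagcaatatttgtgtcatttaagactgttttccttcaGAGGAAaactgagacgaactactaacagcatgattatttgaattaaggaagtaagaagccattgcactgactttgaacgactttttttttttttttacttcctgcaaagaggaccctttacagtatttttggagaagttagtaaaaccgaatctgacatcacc
Cd68: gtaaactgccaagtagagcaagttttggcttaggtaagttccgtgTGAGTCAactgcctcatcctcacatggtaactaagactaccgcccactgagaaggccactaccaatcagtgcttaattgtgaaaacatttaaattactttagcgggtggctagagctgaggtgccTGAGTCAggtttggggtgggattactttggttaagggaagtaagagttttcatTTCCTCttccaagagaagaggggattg
Gpnmb: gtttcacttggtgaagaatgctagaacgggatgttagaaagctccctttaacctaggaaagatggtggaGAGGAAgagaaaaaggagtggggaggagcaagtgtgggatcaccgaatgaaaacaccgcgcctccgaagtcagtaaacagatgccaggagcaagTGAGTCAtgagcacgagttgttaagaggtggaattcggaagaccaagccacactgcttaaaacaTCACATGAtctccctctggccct
Spp1: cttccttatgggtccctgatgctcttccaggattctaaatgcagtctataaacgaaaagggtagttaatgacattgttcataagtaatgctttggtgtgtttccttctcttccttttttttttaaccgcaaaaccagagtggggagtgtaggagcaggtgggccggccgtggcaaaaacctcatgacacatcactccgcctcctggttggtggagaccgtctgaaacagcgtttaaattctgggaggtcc

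RefSeq promoters were matched by symbol for 8 of the 10 genes, Tyrobp and Aif1 not among them. Both strands were searched, the motifs were chosen after the sequences had been seen, and no match overlapped another. GAGGAA occurred in 6 of the 8 promoters (Ptprc, Itgam, Cd68, Lyz2, Gpnmb and Ctsk), and in 23.3% of 33469 promoters of the same length. In Ptprc the match lay at positions -163 to -158 relative to the start site, in Lyz2 at -46 to -41 and in Cd68 at -27 to -22. TGAGTCA occurred 2 times in Cd68 and 1 time in Gpnmb, against 4.05% of all promoters with a match. TCACATGA occurred in Gpnmb alone, at -23 to -16, against 0.977% of all promoters. TCACGTGA, the related E-box, occurred in none of the 8 and in 0.657% of all. The Spp1 promoter shown held none of the 4 motifs, which says only that these letters are not in this window.

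Across the 19 groups, all but Gpnmb and Spp1 had their highest group median in Co at 3 months. The median of Ptprc was 20.4 CPM in Co at 1 month, 135 in Co at 3 months, 2.81 in Co at 6 months and 2.03 in Co at 12 months. The Ta medians of Ptprc at the same times were 1.58, 1.5, 2.51 and 1.14 CPM. Below Co at 1 and 3 months the order of medians ran on with P at 12 months (3.48), DU at 12 months (3.31) and DU and Co at 6 months (2.81 each). The library ranges of these neighbours overlapped, so their order is not beyond the spread. The lowest median was 1.14 CPM, in Ta at 12 months, and the median of Ni at 3 months rounded to the same value. Gpnmb had its highest median in DU at 12 months, at 19.4 CPM. Spp1 had its highest median in Ta at 3 months, at 5.28 CPM, and its lowest in Ni at 6 months, at 0.376 CPM. Tyrobp, Aif1, Lyz2, Cd163, Ctsk and Ptprc had their lowest median in Ta at 12 months.

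**Figure D1:**
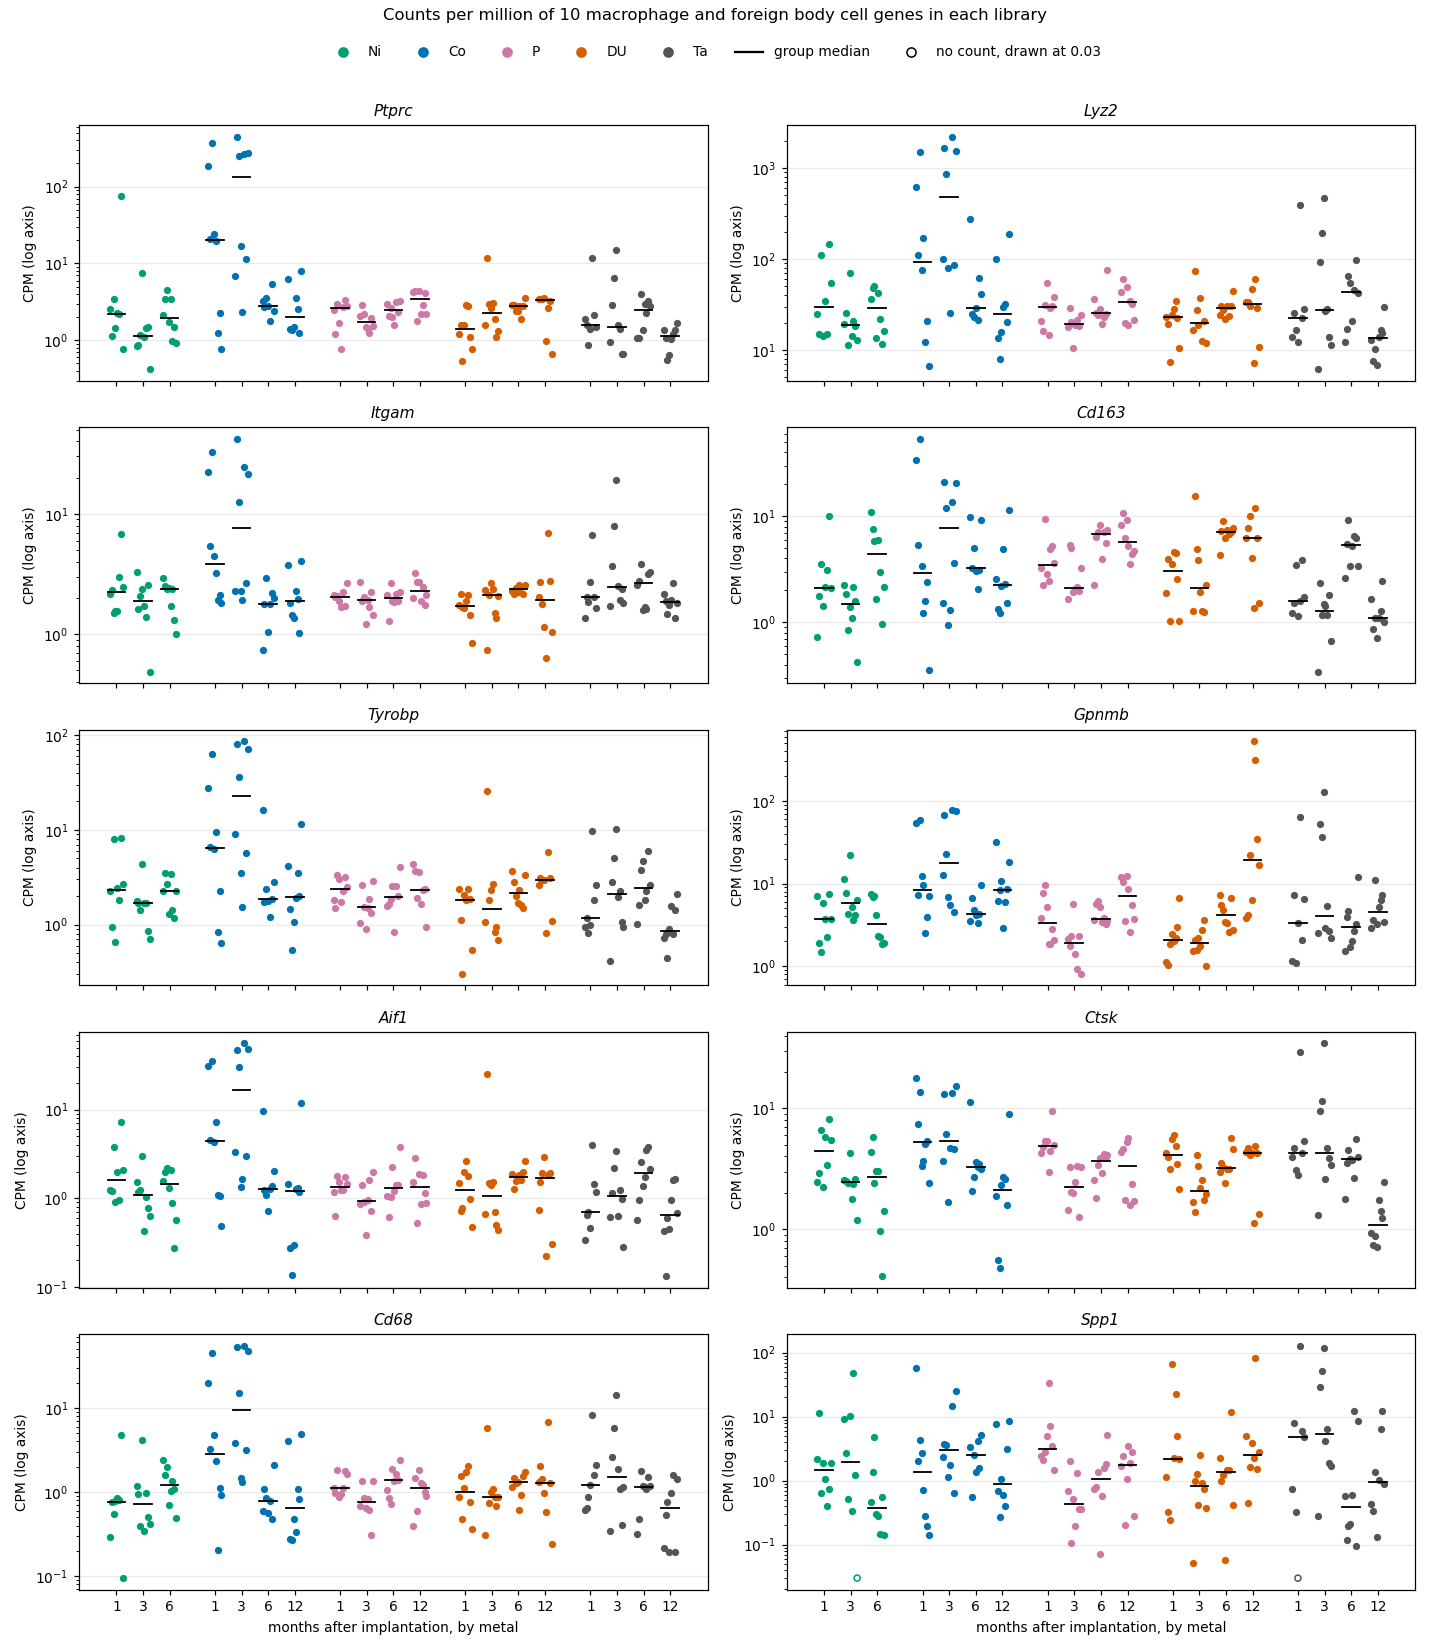
Levels of the 10 genes in CPM on log axes, 1 panel per gene, with each point a library, colours for the metal and a line for each group median. In 8 of 10 panels the highest median is that of Co at 3 months, Gpnmb is highest in DU at 12 months, and Spp1 is highest in Ta at 3 months.

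Cobalt was set beside the sham metal to ask how the muscle around it differed at each time. At 3 months the white cell genes Ptprc, Tyrobp and Aif1 and the scavenger receptor gene Cd163 were higher with Co than with Ta, with log2 fold changes of 2.85 to 5.45. The lysosomal genes Cd68 and Lyz2 had large positive fold changes that did not pass the threshold, and neither did Itgam. The foreign body genes Gpnmb, Ctsk and Spp1 did not pass either, and their fold changes were near 0 or negative. In all, 4 of 10 genes were higher and 0 lower (edgeR, adjusted p under 0.05), against 6.17% of the 12429 genes tested that were higher. The median log2 fold change was 2.79 over the 10 genes and -0.03 over all genes tested.

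Ptprc had 444, 254, 269 and 275 CPM in Co replicates 2, 3, 6 and 8 at 3 months, and 2.35 to 16.8 CPM in the other 4 Co libraries. The Ta libraries had a lowest value of 0.656, a median of 1.5 and a highest of 14.8 CPM. These 4 Co libraries were far above every Ta library, and of the other 4 only replicate 4 exceeded the highest Ta library. The same 4 had TMM factors of 1.34 to 1.89 and median correlations with their group of 0.799 to 0.899, and the part of this in the results was not tested. The log2 fold change of Ptprc was 5.45 ± 1.12 (SE, n = 8 and 8, edgeR adjusted p = 0.0130).

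Aif1 had 46.9, 30.1, 55.6 and 48.3 CPM in Co replicates 2, 3, 6 and 8 and 1.35 to 3.36 CPM in the other Co libraries, against 0.285 to 3.38 CPM in Ta. Its groups overlapped through those 4 lower Co libraries, and its log2 fold change was 4.18 ± 0.84 (edgeR adjusted p = 0.0119). Tyrobp had 81.2, 36.1, 86.2 and 72 CPM in the same 4 Co libraries and 1.52 to 9.14 CPM in the rest, against 0.413 to 10.3 CPM in Ta. Its log2 fold change was 3.58 ± 0.85 (edgeR adjusted p = 0.0199). Cd163 reached 20.9, 11.9, 13.5 and 20.4 CPM in the 4 high Co libraries and 0.944 to 3.60 CPM in the others, against 0.344 to 2.33 CPM in Ta. Its log2 fold change was 2.85 ± 0.64 (edgeR adjusted p = 0.0164), and 5 of 8 Co libraries lay above every Ta library.

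Itgam followed the same libraries at smaller size, with 1.94, 7.59 and 41.9 CPM as lowest, median and highest value in Co, against 1.72, 2.44 and 19.1 CPM in Ta. Its log2 fold change was 1.44 ± 0.72 (edgeR adjusted p = 0.233). Cd68 had 1.31, 9.45 and 55 CPM in Co, against 0.344, 1.51 and 14.4 CPM in Ta, with a log2 fold change of 2.73 ± 0.92 (edgeR adjusted p = 0.0821). Lyz2 had 25.2, 477 and 2195 CPM in Co, against 6.13, 27.5 and 468 CPM in Ta, with a log2 fold change of 2.98 ± 1.05 (edgeR adjusted p = 0.0958). For both lysosomal genes 4 of 8 Co libraries lay above every Ta library, and Ta replicate 4 was the highest of its group. Without Ta replicate 4, Cd68 and Lyz2 passed too, with log2 fold changes of 3.56 and 3.95 (edgeR adjusted p = 0.0344 and 0.0398), where 5.36% of all genes passed.

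Same-numbered Co and Ta libraries at 3 months deviated together in all 8 pairs. With the replicate number as a block, 0 of 10 genes passed, and 1 of all genes tested, or 0.00805%. The blocked log2 fold changes were 4.78 for Ptprc, 3.41 for Aif1, 3.22 for Tyrobp and 2.26 for Cd163, with edgeR adjusted p-values between 0.103 and 0.107. Limma voom with sample weights also called 0 of 10 genes, and 0.0241% of all.

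**Figure D2:**
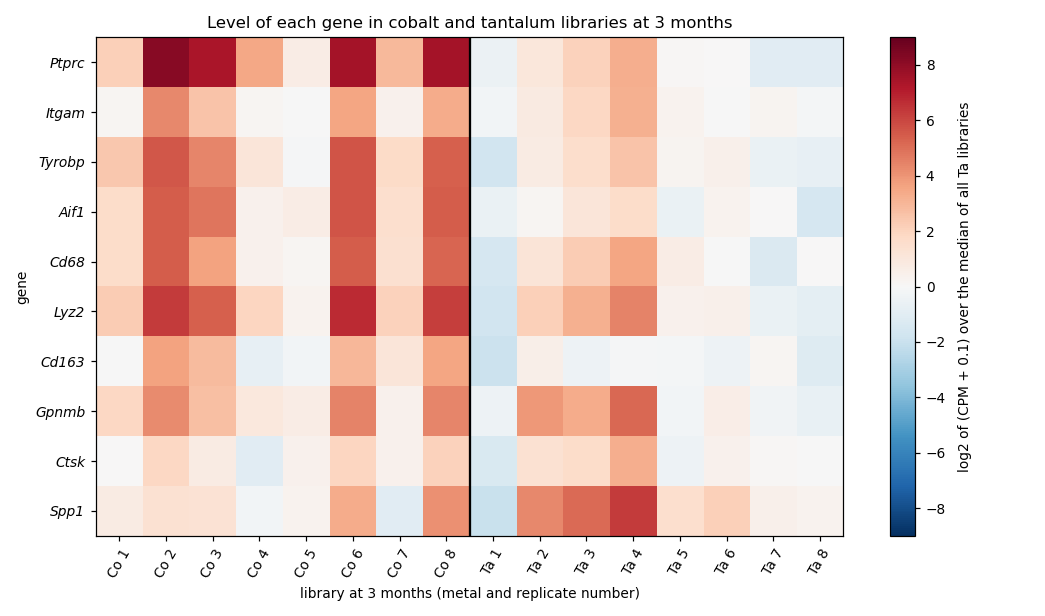
Level of each gene (rows) in each Co library (left) and Ta library (right) at 3 months, as log2 of CPM plus 0.1 over the median of all Ta libraries. Co replicates 2, 3, 6 and 8 are high in Ptprc, Tyrobp, Aif1, Cd68 and Lyz2, and Ta replicates 2, 3 and 4 are high in Spp1 and Gpnmb.

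Within Co at 3 months the foreign body genes too had their 4 highest values in replicates 2, 3, 6 and 8. Of the Co and Ta libraries together, Ta replicate 4 had the highest value of each of these genes. Spp1 had 0.639, 2.97 and 25.5 CPM as lowest, median and highest value in Co, against 0.275, 5.28 and 118 CPM in Ta. Its 3 highest values of the 16 libraries, 118, 50.8 and 29.5 CPM, were in Ta replicates 4, 3 and 2. Gpnmb had 4.47, 17.7 and 78.7 CPM in Co, against 2.18, 4.10 and 129 CPM in Ta. Ta replicates 4, 2 and 3 had 129, 52.1 and 36.5 CPM of Gpnmb, within or above the range of the 4 high Co libraries (22.7 to 78.7 CPM). Ctsk had 1.69, 5.42 and 15.2 CPM in Co, against 1.31, 4.29 and 34.4 CPM in Ta, and its highest value was again in Ta replicate 4. The log2 fold changes were -1.96 ± 1.01 for Spp1, 0.26 ± 0.90 for Gpnmb and -0.16 ± 0.59 for Ctsk (edgeR adjusted p = 0.246, 0.867 and 0.874). The groups overlapped for all 3 genes.

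Set against Ptprc within each library, the foreign body genes had lower medians in Co than in Ta at 1 and 3 months. At 6 months the medians in Co and Ta were 0.707 and 0.179 for Spp1, 1.49 and 1.2 for Gpnmb, and 1.29 and 1.54 for Ctsk. At 12 months they were 0.61 and 0.76 for Spp1, 4.79 and 5.06 for Gpnmb, and 0.887 and 1.14 for Ctsk. The ratio of Spp1 to Ptprc in CPM was 0.00835 to 0.735 over the 8 Co libraries at 3 months, with a median of 0.0618. In Ta at 3 months it was 0.286 to 10.1, with a median of 3.69. At 1 month it was 0.0118 to 0.317 in Co, with a median of 0.103, and 0 to 11 in Ta, with a median of 2.80. The ratio of Gpnmb to Ptprc at 3 months was 0.0894 to 2.32 in Co, with a median of 0.340, against 1.85 to 17.9 in Ta, with a median of 3.92. Other genes had lower ratios to Ptprc in Co at 3 months too. The medians in Co and Ta were 0.0651 and 0.807 for Cd163, 0.291 and 1.11 for Tyrobp, and 0.19 and 0.901 for Cd68. The ratio of Lyz2 to Ptprc in the 4 high Co libraries was 3.37 to 8.17, and it was 29.8 to 31.7 in Ta replicates 2, 3 and 4. These ratios are descriptions without a test, and a ratio to Ptprc is low where Ptprc itself is high.

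**Figure D3:**
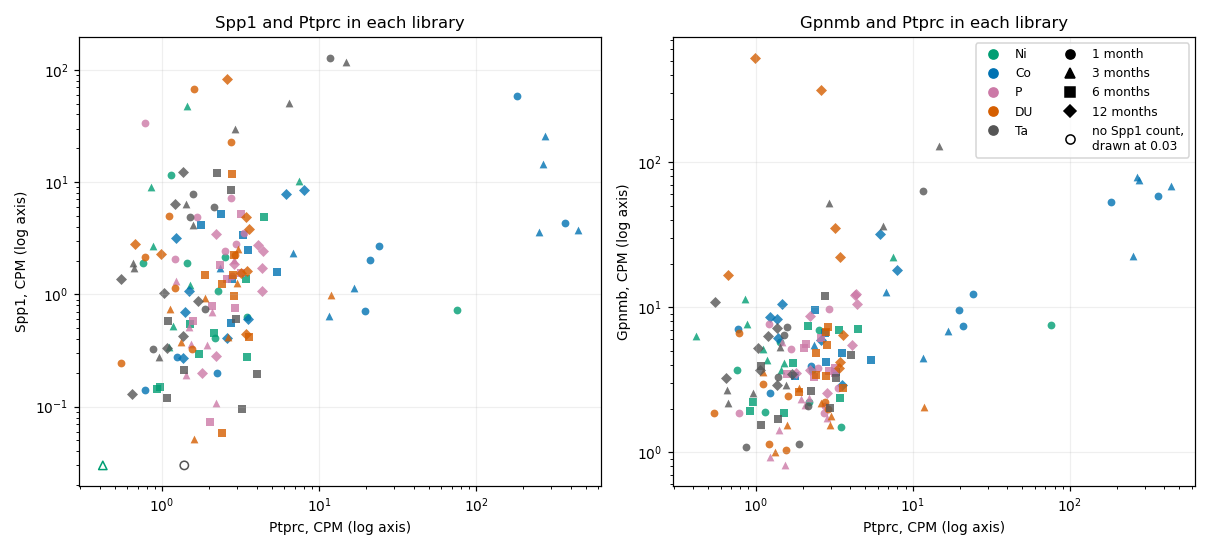
Spp1 (left) and Gpnmb (right) against Ptprc in CPM on log axes, each point a library, with colours for the metal and shapes for the time, and open symbols for the 2 libraries with no Spp1 count. The Co libraries with most Ptprc, up to 444 CPM, lie to the right, and the Ta libraries with 118 and 128 CPM of Spp1 lie at the top with 14.8 and 11.7 CPM of Ptprc.

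The high Ta libraries were few. Ta replicate 4 at 3 months had the highest value of its group in 9 of 10 genes, Cd163 being the exception. Ta replicate 5 at 1 month was also highest of its group in 9 genes. It had 128 CPM of Spp1, 63.5 of Gpnmb, 29.5 of Ctsk and 390 of Lyz2, with 11.7 CPM of Ptprc and 1.60 of Cd163. Cd163 thus stayed within the range of its own group in the Ta libraries where the other 9 genes were high.

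Cobalt was also compared directly with the other test metals at 3 months. Against Ni, 9 of 10 genes were higher with Co, the exception being Spp1, where 11.5% of 12403 genes were higher. Against P all 10 were higher, where 19.6% of 12344 genes were higher, but Cd163 (edgeR adjusted p = 0.0401) was lost in 3 of 6 alternative fits, with adjusted p up to 0.14. Against DU 8 of 10 were higher, where 12% of 12495 genes were higher, and Aif1 and Cd163 did not pass. The 3 comparisons share the Co libraries and are not independent of each other.

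Ptprc averaged 160 ± 171 CPM in Co, against 1.86 ± 2.29 in Ni, 1.84 ± 0.53 in P and 3.30 ± 3.54 in DU (SD, n = 8 each). Its log2 fold changes were 6.47 ± 1.12 over Ni, 6.51 ± 1.01 over P and 5.65 ± 1.09 over DU (SE, edgeR adjusted p = 0.00656, 0.00193 and 0.00570). Lyz2 averaged 813 ± 869 CPM in Co, against 24.0 ± 19.1 in Ni, 20.01 ± 5.36 in P and 27.4 ± 20.5 in DU, and 7 of 8 Co libraries lay above the highest library of each. Cd68 averaged 22.7 ± 24.9 CPM in Co, against 1.11 ± 1.27 in Ni, 0.831 ± 0.361 in P and 1.43 ± 1.80 in DU.

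Gpnmb averaged 34.3 ± 33.6 CPM in Co, against 8.10 ± 6.18 in Ni, 2.18 ± 1.55 in P and 2.06 ± 0.81 in DU. All 8 Co libraries lay above every DU library, and the log2 fold change was 4.14 ± 0.67 (edgeR adjusted p = 0.00531). The difference from Ni was smaller, 2.16 ± 0.65 (edgeR adjusted p = 0.0421), and passed in 8 of 22 alternative fits. Ctsk averaged 7.83 ± 5.24 CPM in Co, against 2.46 ± 0.875 in Ni, 2.38 ± 0.832 in P and 2.37 ± 0.917 in DU. Its log2 fold changes were 1.75, 1.80 and 1.81. Spp1 averaged 6.66 ± 8.84 CPM in Co, against 0.693 ± 0.652 in P and 0.912 ± 0.760 in DU, with log2 fold changes of 3.34 ± 0.78 and 2.98 ± 0.80 (edgeR adjusted p = 0.00633 and 0.0210).

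The DU comparison rested in part on DU replicate 2, the library that stood apart. It had 25 CPM of Aif1, 25.8 of Tyrobp, 11.9 of Ptprc and 15.6 of Cd163, while its Itgam, at 0.741 CPM, was the lowest of its group. Without it all 10 genes were higher with Co than with DU, where 35.6% of all genes passed in either direction, with log2 fold changes of 4.73 ± 0.91 for Aif1 and 2.05 ± 0.68 for Cd163 (edgeR adjusted p = 0.00391 and 0.03). Against Ni, limma voom called 0 of 10 genes (0.00806% of all) and the replicate block 0 (0% of all). Against DU the block called 3 of 10, where it called 7.9% of all genes.

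At the other times the Co groups spread widely. At 1 month 0 of 10 genes passed, and 0% of 12512 genes did. At an unadjusted p under 0.05, 6 genes were higher (Ptprc, Itgam, Tyrobp, Aif1, Cd68 and Cd163), where 14.5% of all genes had such a p. DESeq2 called 3 (Ptprc, Aif1 and Gpnmb), where it called 4.17% of all genes, and limma voom called 0. Ptprc had 0.775, 20.4 and 367 CPM as lowest, median and highest value in Co at 1 month, against 0.874, 1.58 and 11.7 CPM in Ta. Co replicates 1 and 3 had 183 and 367 CPM, replicates 2, 4 and 5 had 19.7 to 24.3 CPM, and replicates 6, 7 and 8 lay within the Ta range or below it. The log2 fold change was 4.67 ± 1.26 (n = 8 and 7, edgeR adjusted p = 0.136). Co replicates 1 and 3 were the only Co libraries at 1 month above every Ta library in Tyrobp, Cd68 and Itgam, and 1 of them, replicate 1, carried 58.0 CPM of Spp1 while the other had 4.31.

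At 6 months 0 of 10 genes passed in Co against Ta (0% of all genes did), with log2 fold changes between -0.51 and 0.68. None had an unadjusted p under 0.05, where 6.8% of all genes had. Co replicate 1, which stood apart, had 16.3 CPM of Tyrobp, 9.64 of Aif1, 276 of Lyz2 and 11.3 of Ctsk, each the highest of its group, but 3.26 CPM of Ptprc and 0.742 of Itgam. Without it the log2 fold change of Lyz2 was -0.40 ± 0.41 (edgeR adjusted p = 0.663), against 0.68 with it.

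At 12 months all 10 fold changes were positive, 0 passed, and 0.0083% of all genes passed. An unadjusted p under 0.05 was reached by 6 genes (Ptprc, Tyrobp, Lyz2, Cd163, Gpnmb and Ctsk), where 13.5% of all genes reached it. DESeq2 called Ptprc alone, with 1.05% of all genes. Ptprc had 1.23, 2.03 and 7.98 CPM in Co, against 0.550, 1.14 and 1.69 CPM in Ta, and 4 of 8 Co libraries were above every Ta library. Co replicates 8 and 1 were the highest, and replicate 8 exceeded every Ta library in 9 genes.

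The difference between times was tested as an interaction. The Co effect on Ptprc, Aif1 and Cd163 was larger at 3 than at 6 months, where 3.2% of 13135 genes had a larger effect at 3 months. The log2 fold changes differed by 5.05 ± 1.14 for Ptprc, 3.99 ± 1.03 for Aif1 and 2.91 ± 0.76 for Cd163 (SE, edgeR adjusted p = 0.0155, 0.0288 and 0.0298). With the replicate block 0 of 10 genes passed, and 0.0228% of all, with edgeR adjusted p = 0.127 for Ptprc, 0.193 for Aif1 and 0.179 for Cd163. No fit of this term left out Co replicate 1 at 6 months. That library had 9.64 CPM of Aif1 and 9.94 of Cd163, each the highest of its group. Against 12 months 0 of 10 genes differed, while 1.21% of 13069 genes did, and the difference for Ptprc was 3.90 ± 1.16 (edgeR adjusted p = 0.0889). There, 2 genes had an unadjusted p under 0.05 (16% of all genes), and DESeq2 called Ptprc alone (3.56% of all genes). Against 1 month 0 genes differed (0% of all), with 0 at an unadjusted p under 0.05 (3.66% of all).

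**Figure D4:**
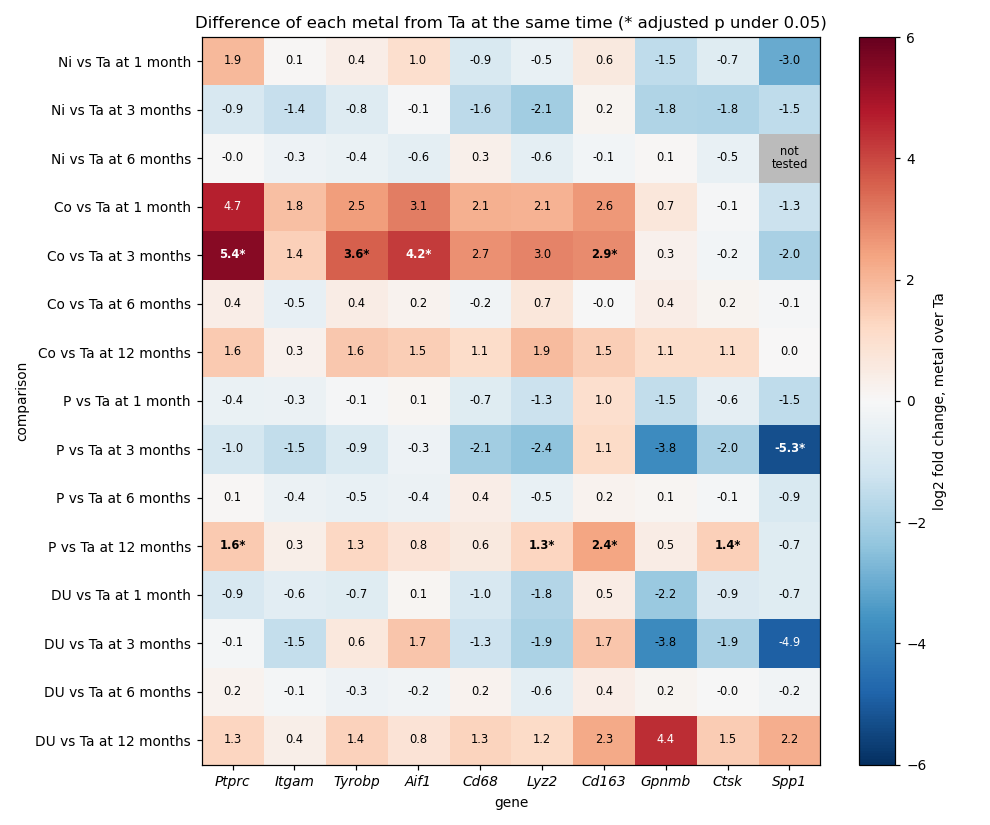
Log2 fold change of each metal over Ta at the same time (rows) for the 10 genes (columns), with stars at an edgeR adjusted p under 0.05 and grey where a gene was not tested. The rows of Co at 1 and 3 months are high for the white cell and lysosomal genes. The rows of P and DU at 3 months are low for Gpnmb, Ctsk and Spp1, and also negative for Itgam, Cd68 and Lyz2.

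With P and DU at 3 months Spp1, Gpnmb and Ctsk had lower medians than with Ta, and of these differences that of Spp1 with P alone passed in edgeR. Lyz2, Cd68 and Itgam had lower medians too. Their log2 fold changes were -2.43, -2.11 and -1.465 with P (edgeR adjusted p = 0.08, 0.0814 and 0.0886). With DU they were -1.90, -1.25 and -1.45 (edgeR adjusted p = 0.149, 0.306 and 0.0988). In P, Spp1 had 0.107, 0.438 and 2.02 CPM as lowest, median and highest value, against 0.275, 5.28 and 118 CPM in Ta. All 8 P libraries lay below the Ta median, though 3 Ta libraries lay within the P range. The log2 fold change was -5.29 ± 1.07 (n = 8 and 8, edgeR adjusted p = 0.0499). Spp1 was thus 1 gene of 10 that was lower with P, where 0.239% of 12130 genes were lower. It stood at the threshold and passed in 6 of 22 alternative fits.

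Gpnmb had 0.812, 1.93 and 5.73 CPM in P, against 2.18, 4.10 and 129 CPM in Ta, with a log2 fold change of -3.76 ± 0.89 (edgeR adjusted p = 0.0611). Ctsk had 1.27, 2.24 and 3.31 CPM in P, against 1.31, 4.29 and 34.4 CPM in Ta, with a log2 fold change of -1.95 ± 0.54 (edgeR adjusted p = 0.0670). Cd163 had the opposite sign, with 1.67, 2.11 and 5.37 CPM in P, against 0.344, 1.29 and 2.33 CPM in Ta, and all 8 P libraries lay above the Ta median. Its log2 fold change was 1.14 ± 0.34 (edgeR adjusted p = 0.0779).

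An unadjusted p under 0.05 was reached by 7 of 10 genes, where 25.2% of all genes reached it. DESeq2 called 7 genes with P (8.3% of all), and limma voom 3, namely Cd163, Ctsk and Spp1 (32.7% of all). The edgeR count moved with single libraries. Without Ta replicate 1, which had the lowest values of its group in 7 genes, 7 genes passed, namely Itgam, Cd68, Lyz2, Cd163, Gpnmb, Ctsk and Spp1, where 12% of all genes passed. Without Ta replicate 3 (4.7% of all genes) or P replicate 4 (2.89%), Gpnmb and Spp1 passed, and without any other library 0 passed. Without Ta replicate 4 the log2 fold change of Spp1 was -4.29 ± 0.92 (edgeR adjusted p = 0.0675).

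DU at 3 months was compared with the same Ta libraries as P. Spp1 had 0.0513, 0.835 and 2.53 CPM in DU and Gpnmb 1.00, 1.91 and 3.60 CPM. All 8 DU libraries lay below the Ta median in Spp1, Gpnmb and Ctsk. The log2 fold changes were -4.90 ± 1.08 for Spp1, -3.82 ± 0.88 for Gpnmb and -1.92 ± 0.55 for Ctsk (edgeR adjusted p = 0.0680, 0.0680 and 0.0756). No gene of the 10 passed, and 0% of 12158 genes did. An unadjusted p under 0.05 was reached by 6 of 10 genes, where 26.5% of all genes reached it. Among these 6, Cd163 had the opposite sign, with a log2 fold change of 1.69 ± 0.57 (edgeR adjusted p = 0.0955). DESeq2 called 5 (10.2% of all) and limma voom 2 (38.4% of all). Without DU replicate 2, Gpnmb and Spp1 passed (edgeR adjusted p = 0.0413 and 0.0396), where 6.05% of all genes passed. Without Ta replicate 1, Gpnmb, Ctsk and Spp1 did, where 6.55% of all genes passed. The log2 fold change of Cd163 was 0.85 ± 0.38 without DU replicate 2 (edgeR adjusted p = 0.143). Those of Aif1 and Tyrobp were 1.68 and 0.61 with DU replicate 2, and -0.50 and -1.12 without it.

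At 12 months P was set beside Ta to ask how the muscle around it differed after the longest stay. Cd163, Ptprc, Ctsk and Lyz2 were higher with P, with log2 fold changes of 1.31 to 2.37. Thus 4 of 10 genes were higher, where 1.93% of 12179 genes were higher. The median log2 fold change was 1.04 over the 10 genes and -0.01 over all.

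Cd163 had 3.57, 5.74 and 10.8 CPM as lowest, median and highest value in P, against 0.714, 1.09 and 2.48 CPM in Ta. The groups did not overlap, and the log2 fold change was 2.37 ± 0.27 (n = 8 and 8, edgeR adjusted p = 0.000805). Ptprc had 1.80, 3.48 and 4.41 CPM in P, against 0.550, 1.14 and 1.69 CPM in Ta, again without overlap. Its log2 fold change was 1.56 ± 0.26 (edgeR adjusted p = 0.00530). Ctsk had 1.59, 3.34 and 5.71 CPM in P, against 0.714, 1.08 and 2.44 CPM in Ta, with a log2 fold change of 1.45 ± 0.33 (edgeR adjusted p = 0.0273). Lyz2 had 18.6, 33.2 and 59.5 CPM in P, against 6.75, 13.5 and 29.9 CPM in Ta, with a log2 fold change of 1.31 ± 0.31 (edgeR adjusted p = 0.0346). For these 2 genes the groups overlapped, but all 8 P libraries lay above the Ta median.

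Tyrobp averaged 2.61 ± 1.17 CPM in P and 1.10 ± 0.55 CPM in Ta (SD, n = 8 each), with a log2 fold change of 1.26 ± 0.33 (edgeR adjusted p = 0.0521). Itgam, Aif1, Cd68, Gpnmb and Spp1 had log2 fold changes between -0.72 and 0.82 and did not pass. Cd163 passed in 22 of 22 alternative fits and Ptprc in 21, but Ctsk in 12 and Lyz2 in 7. Ctsk and Lyz2 were both lost without P replicate 1, 2 or 4 or without Ta replicate 1, 2, 3 or 4, which left 2 genes called.

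DU at 12 months had positive fold changes in all 10 genes, but 0 passed, and 0.00826% of 12113 genes did. An unadjusted p under 0.05 was reached by 7 genes, where 14.7% of all genes reached it. DESeq2 called 5 (Ptprc, Tyrobp, Cd163, Gpnmb and Ctsk, with 1.5% of all genes), and limma voom called 5 (Ptprc, Tyrobp, Lyz2, Cd163 and Ctsk, with 3.02% of all). Cd163 had 1.35, 6.24 and 11.9 CPM in DU, against 0.714, 1.09 and 2.48 CPM in Ta, with 6 of 8 DU libraries above every Ta library. Its log2 fold change was 2.28 ± 0.42 (edgeR adjusted p = 0.134).

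Gpnmb spread widely in DU at 12 months. It had 3.79 and 4.21 CPM in DU replicates 1 and 2, 22.1, 6.40 and 16.7 CPM in replicates 3, 4 and 8, 35.0 CPM in replicate 7, and 527 and 314 CPM in replicates 5 and 6. The Ta libraries had 2.93 to 10.9 CPM. The log2 fold change was 4.41 ± 1.01 (edgeR adjusted p = 0.15), 3.43 ± 0.87 without replicate 5 and 4.00 ± 1.05 without replicate 6. The 2 libraries highest in Gpnmb were unlike in the other genes. Replicate 6 had 82.9 CPM of Spp1, 6.88 of Itgam and 6.76 of Cd68, each the highest of its group, and replicate 5 had 2.30, 0.631 and 0.586 CPM. Replicate 5 also had 0.991 CPM of Ptprc and 0.225 of Aif1, so that its ratio of Gpnmb to Ptprc was 531. Without replicate 5, Cd163 and Ctsk passed, with log2 fold changes of 2.44 ± 0.37 and 1.67 ± 0.30 (edgeR adjusted p = 0.0215 and 0.0434), where 0.164% of all genes passed. Without replicate 6, 0 passed (0.0082% of all genes), and the log2 fold change of Spp1 was -0.17 ± 0.78, against 2.16 ± 1.07 with it.

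**Figure D5:**
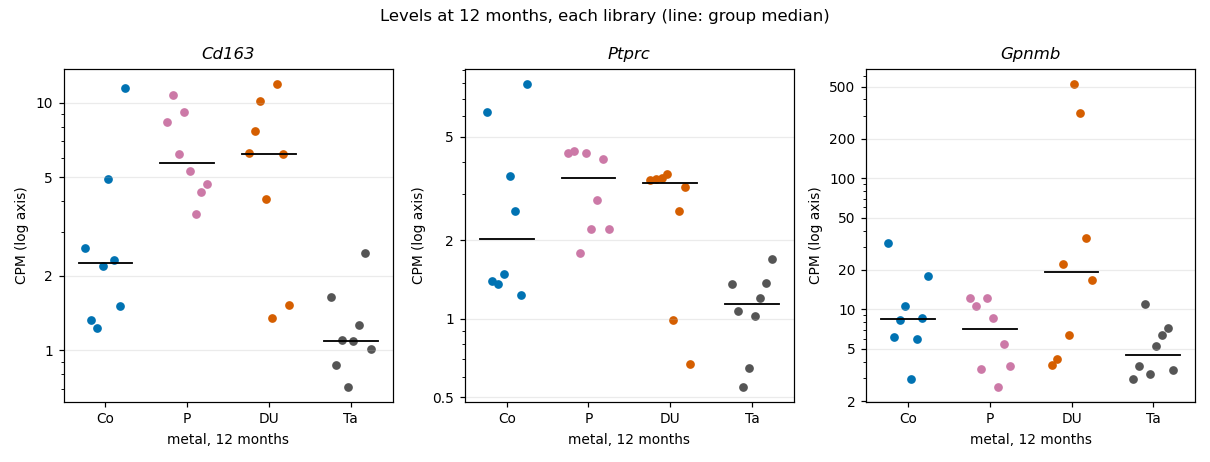
Cd163, Ptprc and Gpnmb at 12 months in CPM on log axes, each point a library and each line a group median, for Co, P, DU and Ta. All 8 P libraries lie above all 8 Ta libraries in Cd163 and Ptprc, and 2 DU libraries have 314 and 527 CPM of Gpnmb.

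By the interaction, the signed log2 fold change of P over Ta was higher at 12 than at 3 months for 6 of 10 genes, where 2.94% of 12791 genes had a higher one at 12 months. These were Ptprc, Itgam, Tyrobp, Lyz2, Gpnmb and Ctsk, all with a positive fold change at 12 months and a negative one at 3 months. For Gpnmb the log2 fold change was 0.45 at 12 months and -3.76 at 3 months, so the size was smaller at 12 months, as it was for Itgam, Lyz2 and Ctsk. The log2 fold changes differed by 3.39 ± 0.67 for Ctsk, 4.2 ± 0.97 for Gpnmb and 3.72 ± 0.84 for Lyz2 (SE, edgeR adjusted p = 0.00894, 0.0204 and 0.0180). They differed by 2.59 ± 0.64 for Ptprc, 2.17 ± 0.62 for Tyrobp and 1.80 ± 0.51 for Itgam (edgeR adjusted p = 0.0270, 0.0449 and 0.0449). Of 6 alternative fits, Ctsk passed in 6, Gpnmb and Lyz2 in 5 each, Ptprc in 4, Tyrobp in 3 and Itgam in 2. With the replicate block 1 of 10 genes passed (0.876% of all genes). No fit of this term left out a library. Cd163, higher with P at 12 months, differed by 1.24 ± 0.45 (edgeR adjusted p = 0.0962). Median Gpnmb was 7.07 CPM in P at 12 months and 1.93 CPM in P at 3 months. In Ta its medians were 4.47 CPM at 12 months and 4.10 CPM at 3 months, with highest libraries of 10.9 CPM at 12 months and 129 CPM at 3 months.

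Between Ta libraries of different times, 1 of the 10 genes passed at 6 months and 1 at 12 months, each against 1 month. In either direction 1205 of 12247 genes passed at 6 months and 2164 of 12219 at 12 months. So 1 of 10 was near or below the share over all genes. At 6 months Cd163 was higher than at 1 month, where 4.11% of 12247 genes were higher. It had 2.62, 5.33 and 9.12 CPM at 6 months, against 1.16, 1.60 and 3.86 CPM at 1 month, and 5 of 8 libraries lay above every library of 1 month. The log2 fold change was 1.31 ± 0.32 (n = 8 and 7, edgeR adjusted p = 0.0201). The call was lost with the replicate block (adjusted p = 0.0618, 0% of all genes called) and with all libraries in 1 model (adjusted p = 0.111, 9.19% of all genes called) in edgeR. Cd163 medians at 6 months were 4.43 CPM in Ni, 3.23 in Co, 6.75 in P, 7.14 in DU and 5.33 in Ta. At 12 months the medians were 2.25 CPM in Co, 5.74 CPM in P and 6.24 CPM in DU, against 1.09 CPM in Ta.

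At 12 months Ctsk was lower than at 1 month, where 9.98% of 12219 genes were lower. It had 0.714, 1.08 and 2.44 CPM at 12 months, against 2.83, 4.28 and 29.5 CPM at 1 month, without overlap. The log2 fold change was -2.60 ± 0.51 (edgeR adjusted p = 0.00389), and -1.68 ± 0.27 without Ta replicate 5 of 1 month (edgeR adjusted p = 0.00112). All 10 fold changes of Ta at 12 months over 1 month were negative. Without that replicate those of Gpnmb and Aif1 were positive, at 0.60 and 0.03. At 3 months against 1 month 0 of 10 genes passed (0.00813% of 12304 genes did), with 0 at an unadjusted p under 0.05 (6.4% of all).

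The remaining comparisons with Ta called 0 of the 10 genes with edgeR, and 0% of all genes tested. DESeq2 and limma voom called none of the 10 there either. Counts at an unadjusted p under 0.05 were 1 of 10 for Ni at 1 month (12.3% of all genes), 5 for Ni at 3 months (3.41%) and 0 of 9 for Ni at 6 months (2.73%), where Spp1 was not tested. They were 1 for P at 1 month (8.2%), 0 for P at 6 months (7.41%), 2 for DU at 1 month (8.07%) and 0 for DU at 6 months (13%). The 5 genes of Ni at 3 months, Itgam, Cd68, Lyz2, Gpnmb and Ctsk, had log2 fold changes of -1.39 to -2.09, and its comparison used the same Ta libraries as those of P and DU. Ni replicate 7 at 1 month had 76.1 CPM of Ptprc, against 0.760 to 3.48 CPM in the other 7 Ni libraries. With it the log2 fold change of Ptprc was 1.94 and without it -0.59 ± 0.53 (edgeR adjusted p = 0.581).

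Among themselves the 10 genes formed a close core and a looser rim over the 150 libraries. These Spearman correlations of log2 CPM are descriptions without a test, and the libraries share metals, times and depth. The highest were 0.911 for Tyrobp with Lyz2, 0.842 for Ptprc with Lyz2 and 0.829 for Aif1 with Lyz2. Within groups, after subtraction of each group's mean, Tyrobp with Lyz2 was 0.886. Gpnmb had its highest correlation with another member at 0.432, with Spp1, and Cd163 with Gpnmb was the lowest of the 45 pairs at 0.136. Cd163 was nearest to Ptprc among the members, at 0.611. Of 12255 genes with a mean of at least 1 CPM, Lyz2 was the gene most like Tyrobp and most like Aif1. For Ctsk, Cd163, Gpnmb and Spp1 the nearest member ranked 87, 107, 199 and 220 among all those genes. The 2 genes outside the list with the highest mean correlation with the 10 were ENSRNOG00000003622, at 0.670, and ENSRNOG00000024159, at 0.653. The first of these was also the gene nearest to Ptprc (0.862) and to Lyz2 (0.918).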

How the data were processed

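The authors deposited raw read counts per gene, whole numbers that are not normalized, from rat gastrocnemius. Per the labels' protocols, RNA was taken with TRIzol and libraries were made from total RNA with a stranded kit. Per the submitters' processing notes, HISAT2 2.0.5 and featureCounts 1.5.0-p3 were used with build Rnor_6.0. The annotation release and strand setting are not given in the sources used here. No lane or batch is given. Libraries of 1 group differed beyond sampling noise, so each was counted once.

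Genes were filtered with filterByExpr, scaled with TMM and tested with the quasi-likelihood test of edgeR 4.0.16 (limma 3.58.1, R 4.3.3) on the libraries of the groups compared. P-values were adjusted by Benjamini-Hochberg over all 12034 to 13749 genes tested, with a threshold of 0.05. Fits were tested on simulated data. There were 25 comparisons: 15 with Ta, 3 of Co with another metal, 3 of Ta times and 4 interactions. Comparisons at 1 time share Ta libraries. Alternatives were DESeq2 1.42.0, limma voom, RLE factors, no filter, all 150 libraries in 1 model, a replicate block and leaving out libraries. Same-numbered Co and Ta libraries at 3 months deviated together in 8 of 8 pairs (r 0.109 to 0.426, over a threshold of 0.1), which comes from the data and not from a label.

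The named genes are the 10 members, and outside them the 2 genes with the highest mean correlation with the members. Members and lists were chosen with earlier results of these data known. Marker and pathway lists were not used here, because identifiers could not be paired with names. Promoters are from RefSeq, another build than the counts.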

Additional observations from a re-analysis of the deposited data

Results flagged for a closer look

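In 24 of the 190 groups of gene and condition, 1 library lay far from the others of its group by Dixon's gap test. For normal values chance flags about 1 in 20, which gives 9.5. The flags are not separate, since the genes correlate within groups (0.886 for Tyrobp with Lyz2). Single libraries were flagged in up to 4 genes. So 24 beside 9.5 is a description and not a test. Of the 24, 22 were the highest library and 2 the lowest. DU replicate 2 at 3 months was highest in 4 genes, with 11.9 CPM of Ptprc, 25.8 of Tyrobp, 25 of Aif1 and 5.85 of Cd68. Ta replicate 5 at 1 month was highest in 4, with 11.7 CPM of Ptprc, 6.68 of Itgam, 390.0 of Lyz2 and 29.5 of Ctsk. Co replicate 1 at 6 months was highest in 4, with 16.3 CPM of Tyrobp, 9.64 of Aif1, 276.0 of Lyz2 and 11.3 of Ctsk. Ni replicate 4 at 3 months was highest in 3, with 7.46 CPM of Ptprc, 4.15 of Cd68 and 69.9 of Lyz2. Ni replicate 7 at 1 month was highest in Ptprc at 76.1 CPM and in Itgam at 6.80 CPM. Single genes were high in Co replicate 8 at 12 months (Aif1, 11.9 CPM), P replicate 8 at 6 months (Lyz2, 75.8 CPM) and DU replicate 8 at 6 months (Lyz2, 44.5 CPM). Spp1 was high in Ni replicate 2 at 1 month (11.5 CPM) and DU replicate 6 at 12 months (82.9 CPM). The lowest libraries were DU replicate 8 at 1 month for Itgam (0.841 CPM) and P replicate 2 at 1 month for Aif1 (0.636 CPM).

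The effect of a metal differed between times in 9 interaction tests. The Co effect was larger at 3 than at 6 months, by a log2 difference of 5.05 for Ptprc, 3.99 for Aif1 and 2.91 for Cd163. The signed log2 fold change of P over Ta was higher at 12 than at 3 months, being positive at 12 and negative at 3 months, by 3.39 for Ctsk, 3.72 for Lyz2 and 4.2 for Gpnmb. For Ptprc, Tyrobp and Itgam the difference was 2.59, 2.17 and 1.80.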

How the results depend on the processing

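Of 256 counts of members called under alternatives, 193 stayed within 1.5 times the reported count and 63 did not. The 193 include counts of 0 that stayed 0, so they do not measure how stable the calls were. No sign changed among the 47 member values that had passed, but 58 of the 202 that had not passed changed sign under at least 1 alternative. Among these are Ptprc for Ni at 1 month, Lyz2 for Co at 6 months, Spp1 for DU at 12 months, and Gpnmb and Aif1 for Ta at 12 months, each without 1 library. The shares in brackets are of all genes tested in the same fit. DESeq2 called 3 members for Co at 1 month (4.17%), 1 for Co at 12 months (1.05%), 7 for P at 3 months (8.3%), 5 for DU at 3 months (10.2%), 5 for DU at 12 months (1.5%), 2 for Ta at 6 months (17.4%), 2 for Ta at 12 months (22.4%), 5 for the Co effect at 3 against 6 months (6.91%) and 1 for that at 3 against 12 months (3.56%). Limma voom called 0 for Co at 3 months (0.0241%), 3 for P at 3 months (32.7%), 2 for DU at 3 months (38.4%), 5 for DU at 12 months (3.02%), 0 for Co against Ni (0.00806%), 2 for Ta at 6 months (18.1%) and 5 for the Co effect at 3 against 6 months (12%). With all 150 libraries in 1 model the counts were 7 for Co at 1 month (11.5%), 7 for Co at 3 months (22.1%), 3 for P at 3 months (0.501%), 1 for P at 12 months (0.772%), 6 for DU at 3 months (23.5%), 3 for DU at 12 months (5.06%), 0 for Ta at 6 months (9.19%), 2 for Ta at 12 months (6.04%), 6 for the Co effect at 3 against 6 months (10.3%), 1 for that at 3 against 12 months (5.55%) and 3 for the P effect (0.481%). RLE factors (0.107%) or no filter (0.0582%) left 0 for P at 3 months. The cause of these moves was not tested.

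With the replicate number as a block, 0 members were called for Co (0.00805%) and for P (0.0165%) against Ta at 3 months, 2 for P at 12 months (0.361%), 0 for Co against Ni (0%), 3 for Co against DU (7.9%), 0 for Ta at 6 months (0%), 0 for the Co effect at 3 against 6 months (0.0228%) and 1 for the P effect (0.876%). Over the 21 comparisons checked, 63 of 160 same-numbered pairs correlated over 0.1, and only Co with Ta at 3 months did so in every pair. The median r was 0.163 there, but 0.311 for P with Ta at 3 months and 0.204 for Co with DU at 3 months, each with 6 of 8 pairs over 0.1. It was lowest for P with Ta at 12 months, at -0.265. No label says what the number marks.

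Leaving out 1 library gave 4 to 6 members for Co at 3 months (2.92% to 12.2%), 0 for Co at 1 month (0%), 0 to 7 for P at 3 months (0.00816% to 12%), 2 to 5 for P at 12 months (1.13% to 3.78%), 0 to 3 for DU at 3 months (0% to 6.55%) and 8 to 9 for Co against Ni (5.2% to 20.8%). Chosen after seeing the data, leaving out DU replicate 5 or 6 at 12 months gave 2 (0.164%) or 0 (0.0082%). Low counts limit Cd68, with 8943 counts in all libraries, and Spp1, with no count in 2. Totals were nearly as low for Itgam (9137), Aif1 (9657) and Ctsk (10686). Genes that passed are limited too. The Ta libraries at 12 months had 10 to 25 counts of Ptprc, 11 to 38 of Cd163 and 11 to 36 of Ctsk.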
